A study of Mus musculus with 6 samples.

Results

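The genes described here are 10 components of the Notch pathway: the receptors Notch1, Notch2 and Notch3, the ligands Dll1, Dll3 and Jag2, the glycosyltransferase Mfng, and the target genes Hes1, Hes5 and Hey1. They were taken by gene symbol from a table of 31319 genes, and each symbol matched 1 row. The libraries were poly(A)-selected RNA of the main olfactory epithelium, the nasal tissue that holds the odour-sensing neurons, taken at 5 months of age from male C57BL/6 mice. The 6 libraries are 3 with a knockdown of miR-200b and miR-200a (KD-1 to KD-3) and 3 of the group labelled NC (NC-1 to NC-3). The sources used here do not give the method of the knockdown, the cells it reached or the treatment of the NC mice. They also do not state whether a library stands for a separate mouse, so that p-values measure a spread between libraries that may be technical. Values of single libraries are given in the order KD-1, KD-2, KD-3 and NC-1, NC-2, NC-3. The comparison of KD with NC asks which transcripts differ when these microRNAs are lowered.

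Notch signalling works between touching cells. A Delta-like or Jagged ligand on 1 cell pulls on a Notch receptor of its neighbour, ADAM metalloproteases and then gamma-secretase cut the receptor, and the freed intracellular part joins the DNA-binding protein RBPJ to switch on repressor genes of the Hes and Hey families. These repressors hold back proneural genes such as Neurog1. In the olfactory epithelium Notch is known for its role in the choice between neuronal and supporting cell fates and in keeping horizontal basal cells, the reserve stem cells, at rest. The pathway also acts in blood vessels, where Notch1, Notch4 and Dll4 are used by endothelial cells and Notch3 by the mural cells around them.

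The mature strands of the lowered microRNAs are printed because the 7 bases from position 2 to 8, the seed, decide which transcripts they can pair with. The seed is in capitals. Both are encoded on the minus strand of chromosome 4, miR-200b-3p at chr4:156055685-156055706 and miR-200a-3p at chr4:156054911-156054932 (RefSeq, GRCm38.p6).
mmu-miR-200b-3p: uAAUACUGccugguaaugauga
mmu-miR-200a-3p: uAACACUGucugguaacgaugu
A match to either seed was looked for in the longest annotated 3′ untranslated region (UTR) of each gene. The matches are CAGTATT for miR-200b and CAGTGTT for miR-200a on the transcript strand. Among the 10 genes 3 held a match, and all 3 are shown with 9 bases on each side and the match in capitals. Those of Notch1 (chr2:26458837-26458861, minus strand) and Notch2 (chr3:98150020-98150044, plus strand) are for miR-200a, and that of Jag2 (chr12:112907983-112908007, minus strand) is for miR-200b.
Notch1: tgcaggctcCAGTGTTctgtagtag
Notch2: aaaggtgttCAGTGTTcacgtgtga
Jag2: ggacggcggCAGTATTgaagcttgt
Of 15786 tested genes with a 3′ UTR, 14.9% held a miR-200b match, 19.7% a miR-200a match and 29.0% at least 1 of them, so 3 of 10 is close to the share over all genes. The 10 genes had a median UTR of 848 bases, against 1175 over the tested genes. A match describes the letters of a sequence and is not a measured binding site.

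Several libraries stood apart before any Notch gene was considered. Counts at Mir200a were 54, 3 and 52 in the KD libraries against 200, 87 and 84 in the NC libraries, and at Mir200b 10, 0 and 28 against 76, 54 and 47, which in poly(A) RNA does not measure the mature microRNA. The summed level of 10 mature olfactory neuron markers, which include Omp and Adcy3, was 3490, 72.5 and 4360 counts per 1000000 (CPM, scaled with TMM factors) in KD-1 to KD-3 and 7430 to 11800 in NC. KD-2 therefore held little of the RNA that defines the labelled tissue. NC-1 had the lowest sums of the endothelial, mural, horizontal basal, globose basal, ciliated, B cell and macrophage markers. It had the highest sums of the neuron, supporting cell and glia markers. Total counts ran from 15704791 to 17618540. In bulk RNA, fewer cells of a type and less RNA per cell cannot be told apart.

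None of the Notch genes passed the test between KD and NC. Of the 10, 9 had enough counts to be tested with edgeR's quasi-likelihood test, and 0 had an adjusted p under 0.05 (Benjamini-Hochberg over 18444 genes, of which 0% were called). Hes5 was left out by the filter on low counts. Fitted log2 fold changes of KD over NC were above 0 for 6 of the 9 and below 0 for 3, with a median of 0.35, against 50.6% above 0 and a median of 0.01 over all tested genes. In 4 of the 9 every KD library lay above every NC library (Notch1, Notch2, Dll1 and Hes1), a pattern found in 15.3% of all tested genes. In 1, Jag2, every KD library lay below every NC library, which was so for 18.6% of tested genes. At an unadjusted p under 0.05 there were 3 of the 9, all higher in KD (Notch1, Notch2 and Hes1), against 8.7% of tested genes in that direction and 17.9% in either. DESeq2, which called 1.89% of genes with an adjusted p, called 0 of the 9, and limma-voom, which called 0% of genes, called 0. At an unadjusted p under 0.05 DESeq2 had 2 of the 9 (Notch1 and Hes1, against 21.8% of genes in either direction) and limma-voom 2 (Notch1 and Notch2, against 21.3%).

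**Figure D1:**
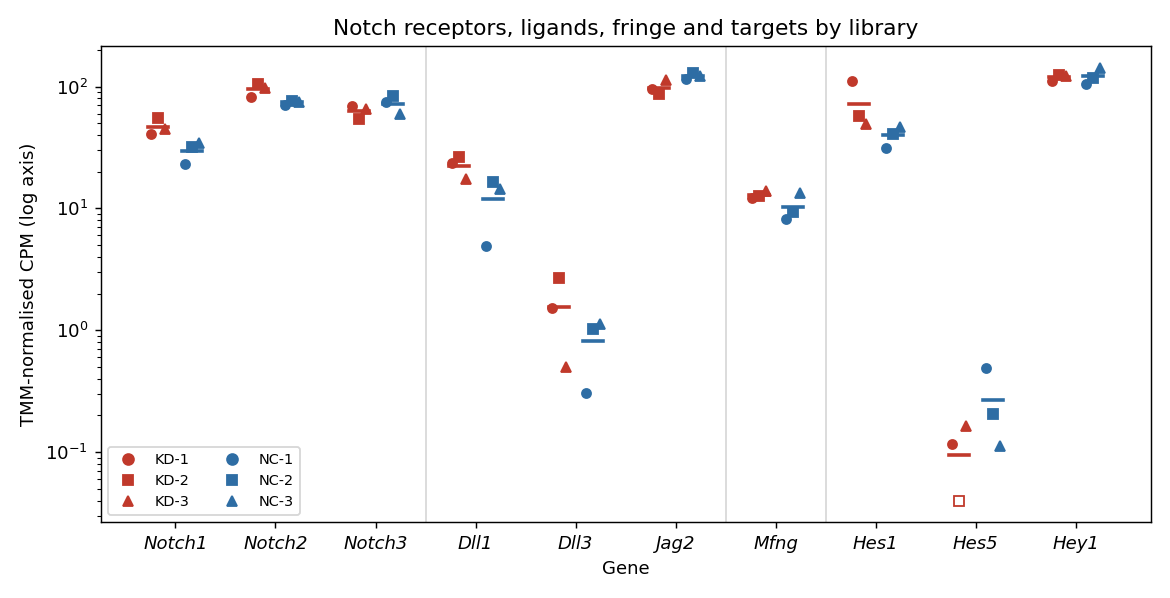
TMM-normalised counts per 1000000 (CPM, log axis) of the 10 genes by library (KD red, NC blue), the replicate number as the symbol and a short line at each mean of 3 libraries; the open square stands for 0 counts of Hes5 in KD-2. Notch1, Notch2, Dll1 and Hes1 have all KD points above all NC points, and Jag2 has all below.

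Among the receptors, Notch1 (ENSMUSG00000026923, chr2:26457903-26516663, minus strand, GRCm38) had 698, 718 and 814 counts in the KD libraries against 374, 626 and 612 in the NC libraries. Scaled to CPM these were 40.8, 55.0 and 44.9 in KD and 23.1, 32.0 and 34.3 in NC. The groups did not overlap, with KD-2 highest and NC-1 lowest. The fitted difference was 1.57-fold, a log2 fold change of 0.65 (SE 0.203; edgeR adjusted p = 0.28). Leaving out KD-2 and NC-1 together gave 0.39. Genes annotated on the other strand overlap exons of Notch1, Notch3, Dll1 and Hes5, and since the strand setting is unknown their reads cannot be told apart from those of these 4 genes. The most abundant of them had 190 counts over the 6 libraries at Notch1 and 111 at Dll1.

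Notch2 (ENSMUSG00000027878, chr3:98013527-98150361) differed by less. It stood at 82.2, 105 and 97.0 CPM in the KD libraries against 70.3, 76.7 and 75.0 in the NC libraries. The groups did not overlap, although KD-1 was only slightly above NC-2. Its log2 fold change was 0.35 (SE 0.143, adjusted p = 0.28 by edgeR).

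Notch3 (ENSMUSG00000038146, chr17:32120820-32166852), the receptor of pericytes and vascular smooth muscle, had a lower mean in KD without separating the groups. It stood at 69.1, 54.5 and 65.9 CPM in the KD libraries against 74.1, 83.1 and 59.0 in the NC libraries. NC-3 lay below KD-1 and KD-3. Its log2 fold change was -0.19 (SE 0.18, adjusted p = 0.53 by edgeR), and without KD-2 it was -0.07. The remaining receptor gene, Notch4, averaged 10.9 ± 2.75 CPM in KD against 8.25 ± 1.89 in NC (SD, n = 3 each), with overlapping groups.

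The summed markers of horizontal basal, endothelial and mural cells, which use these receptors, did not overlap between the groups. This was not particular to them. Of the 12 marker lists, only the fibroblast, B and plasma cell and macrophage sums overlapped. The sums of supporting cells, neurons and glia were lower in KD, and those of globose basal and ciliated cells higher. All 8 horizontal basal cell markers, which include Krt5, Krt14 and Trp63, had a higher mean in KD, and their summed level was 867 to 1460 CPM in KD against 263 to 641 in NC. All 9 endothelial markers, which include Pecam1 and Cdh5, had a higher mean in KD, with sums of 371 to 596 against 162 to 311 CPM. For pericytes and smooth muscle 7 of 9 markers had a higher mean in KD, with sums of 2790 to 4010 against 1110 to 2720 CPM. Most of it came from Rgs5, whose own groups overlapped (2240 CPM in KD-2, 2250 in NC-2). No marker of these 3 lists was at 0 in any library. Their part in the receptor values was not tested.

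The makeup of the receptor family was compared per length, as CPM per kilobase of all annotated exons of a gene. This length counts every isoform, so it understates the level of genes with many isoforms. Notch1 made up 14.2%, 17.5% and 14.7% of the summed receptor level in the KD libraries against 8.98%, 10.8% and 13.5% in the NC libraries. Notch3 made up 42.3%, 30.6% and 38.0% in KD and 50.7%, 49.5% and 40.8% in NC. The Notch1 shares did not overlap between groups, and the Notch3 shares did, since KD-1 lay above NC-3. Notch2 took 41.3 ± 3.25% in KD and 36.5 ± 2.34% in NC, and Notch4 6.32 ± 1.39% and 5.43 ± 1.27% (SD, n = 3 each).

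**Figure D2:**
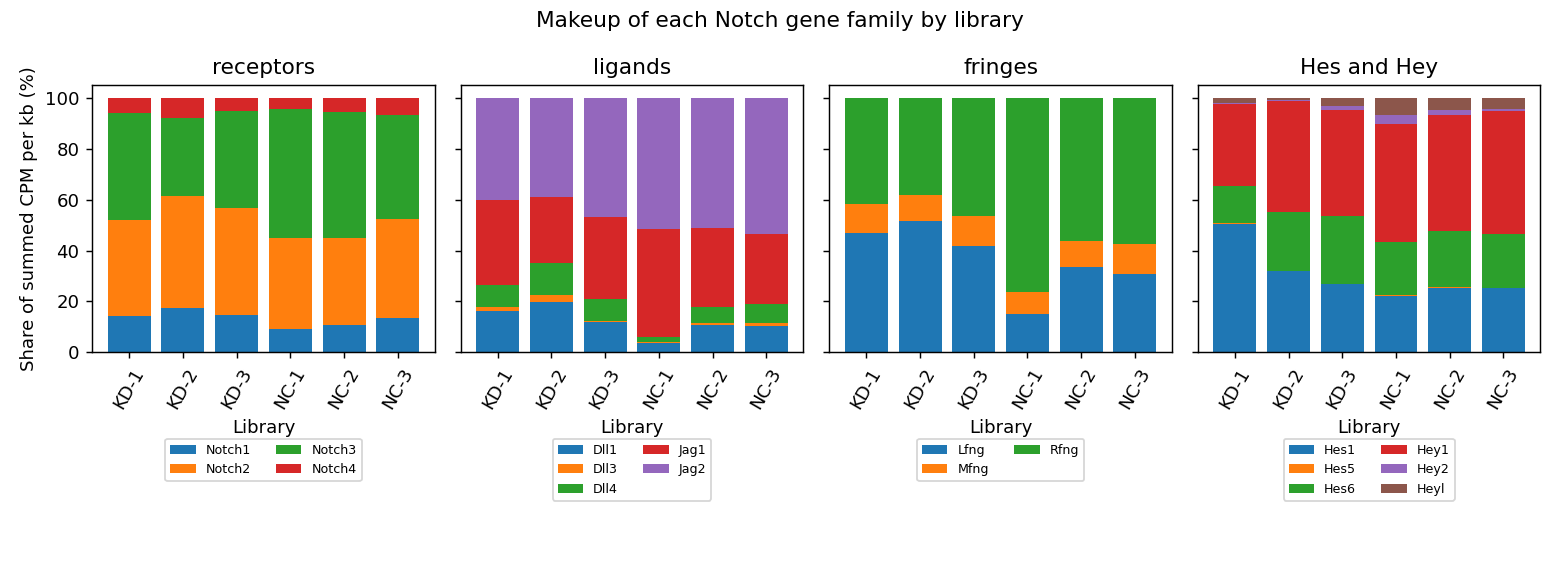
Share of the summed level per exon length (CPM per kilobase, in %) that each gene takes within the receptors, the ligands, the fringes and the Hes and Hey genes, with 1 bar per library. The Lfng share is 41.8% to 51.7% in KD and 15.1% to 33.6% in NC, and the Jag2 share is 39.0% to 46.9% in KD and 51.1% to 53.6% in NC.

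Among the ligands, Dll1 (ENSMUSG00000014773, chr17:15367354-15376872), which activates Notch on neighbouring cells, had 403, 344 and 314 counts in the KD libraries against 79, 321 and 259 in the NC libraries. In CPM it stood at 23.5, 26.3 and 17.3 against 4.87, 16.4 and 14.5. NC-1 lay far below the other 5 libraries, and KD-3 lay just above NC-2. The log2 fold change of 0.91 (SE 0.456; edgeR adjusted p = 0.31) became 0.53 without NC-1.

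Dll3 (ENSMUSG00000003436, chr7:28293553-28302238), a divergent Delta-like protein known to act inside the cell against Notch signalling, was near the detection limit. It had 26, 35 and 9 counts in the KD libraries against 5, 20 and 20 in the NC libraries. The groups overlapped, with KD-3 and NC-1 as the lowest libraries. In all there were 70 KD counts (95% exact Poisson interval 54.6 to 88.4) and 45 NC counts (32.8 to 60.2), intervals that cover counting error alone. The log2 fold change was 0.91 (SE 0.736, adjusted p = 0.47 by edgeR) and 0.31 without KD-2.

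Jag2 (ENSMUSG00000002799, chr12:112907819-112929776), the Jagged-type ligand of the set and the only 1 of the 10 with a miR-200b seed match, stood lower in KD. It had 1624, 1123 and 2056 counts in the KD libraries against 1881, 2528 and 2195 in the NC libraries. In CPM it stood at 94.8, 86.0 and 113 against 116, 129 and 123, so KD-3 came close to NC-1 without overlapping. The log2 fold change was -0.32 (SE 0.155, adjusted p = 0.30 by edgeR) and -0.21 without KD-2. Its share of the summed ligand level per length was 40.1%, 39.0% and 46.9% in the KD libraries against 51.4%, 51.1% and 53.6% in the NC libraries.

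The related ligands did not all follow it. Jag1 averaged 59.6 ± 10.3 CPM in KD against 66.4 ± 13.9 in NC (SD, n = 3 each), with overlapping groups. Dll4, the ligand of endothelial tip cells, stood at 11.0, 15.2 and 11.7 CPM in the KD libraries against 2.65, 8.38 and 9.42 in the NC libraries, without overlap. Its log2 fold change was 0.89 (SE 0.475, adjusted p = 0.33 by edgeR) and 0.51 without NC-1. That library was also lowest for Dll1, Notch1, Notch2, Hes1 and Hey1, though not for Notch3 or Jag2. It was lowest for the endothelial and several other marker sums.

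Fringe proteins add N-acetylglucosamine to Notch and so change which ligands it answers. Mfng (ENSMUSG00000018169, chr15:78755882-78773475) stood at 12.1, 12.7 and 13.8 CPM in the KD libraries against 8.14, 9.40 and 13.3 in the NC libraries. The KD libraries lay close together, and NC-3 lay among them, so the groups overlapped. The log2 fold change was 0.33 (SE 0.237, adjusted p = 0.43 by edgeR) and 0.18 without NC-1.

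The paralogs of Mfng stood on opposite sides. Lfng had 751, 755 and 793 counts in the KD libraries against 204, 535 and 550 in the NC libraries, and in CPM 43.9, 57.8 and 43.7 against 12.6, 27.3 and 30.8. The groups did not overlap, and the log2 fold change was 1.04 (SE 0.346, adjusted p = 0.28 by edgeR), or 0.74 without NC-1. Rfng averaged 43.1 ± 4.99 CPM in KD against 55.1 ± 8.96 in NC (SD, n = 3 each), with overlapping groups. Per length, Lfng took 46.9 ± 4.99% of the summed fringe level in KD and 26.5 ± 9.97% in NC, and Rfng took 42.1 ± 4.2% and 63.3 ± 11.2%. Neither set of shares overlapped between groups. The Mfng share was 11.0 ± 0.882% and 10.2 ± 1.54%.

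Among the targets, Hes1 (ENSMUSG00000022528, chr16:30064384-30067796), a repressor of proneural genes, had 1878, 743 and 896 counts in the KD libraries against 507, 800 and 836 in the NC libraries. In CPM it stood at 110, 56.9 and 49.4 against 31.3, 40.9 and 46.9. The groups did not overlap, but KD-1 alone lay far above the rest and KD-3 was close to NC-3. The log2 fold change of 0.86 (SE 0.342; edgeR adjusted p = 0.28) became 0.42 without KD-1.

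Hey1 (ENSMUSG00000040289, chr3:8663359-8667256), a repressor of the related Hey family, had nearly equal means in the groups, which overlapped. It stood at 112, 124 and 123 CPM in the KD libraries against 105, 118 and 143 in the NC libraries. Its log2 fold change was -0.03 (SE 0.163, adjusted p = 0.91 by edgeR), and it was 0.01 without KD-1 and 0.10 without NC-3.

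Hes5 (ENSMUSG00000048001, chr4:154960923-154962371), a target known from neural progenitors that lies 1.09 Mb from Mir200a on the same chromosome, was barely detected. It had 2, 0 and 3 counts in the KD libraries against 8, 4 and 2 in the NC libraries. The 5 KD counts (95% exact Poisson interval 1.62 to 11.7) and 14 NC counts (7.65 to 23.5) had overlapping intervals. The 0 in KD-2 allows up to 3 counts, or 0.23 CPM, which is above the level in NC-2 and NC-3 (0.204 and 0.112 CPM). A difference in Hes5 was therefore not detectable at this depth.

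Of 7 other genes listed as Notch targets or in the Hes and Hey families, 4 were tested. Their log2 fold changes were above 0 for 1 and below 0 for 3. Heyl, a target found in vascular smooth muscle, stood at 11.0, 3.91 and 15.5 CPM in the KD libraries against 24.1, 19.5 and 20.5 in the NC libraries, without overlap (log2 fold change -1.07, SE 0.471, adjusted p = 0.29 by edgeR). Without KD-2 its log2 fold change was -0.66. Hey2 averaged 2.96 ± 1.74 CPM in KD against 7.33 ± 4.05 in NC (SD, n = 3 each), with overlapping groups. Its log2 fold change was -1.30 (SE 0.578, adjusted p = 0.29 by edgeR). Without NC-1 that of Hey2 was -0.78, and without KD-2 and NC-1 it was -0.49. Hes6, which counteracts Hes1, averaged 36.1 ± 7.71 and 31.1 ± 4.44 CPM (SD, n = 3 each), also with overlapping groups. Nrarp, a feedback inhibitor that binds the Notch intracellular part, stood at 1.25 ± 0.288 and 1.41 ± 0.229 CPM.

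Neurog1, a proneural gene that Hes repressors act on, was low and uneven. It had 10, 1 and 34 counts in the KD libraries against 44, 37 and 32 in the NC libraries. The groups overlapped, and it was lowest in KD-2, the library with 72.5 CPM of mature neuron markers. In the list of 8 globose basal and progenitor markers that holds it, 3 had a higher mean in KD, and the sums were 168 to 214 CPM in KD and 139 to 162 in NC. Of that list Neurod1 was at 0 in KD-2, and Neurod2 was at 0 in 5 of the 6 libraries. Sustentacular cells are the supporting cells of the epithelium. Their 7 markers had sums of 4810 to 11700 CPM in KD and 12000 to 14500 in NC. Of the 7, only Cbr2 had a higher mean in KD. In KD-2, where the sum was 4810 CPM, Cbr2 alone stood at 3950 CPM. Cyp2g1 stood there at 29.5 CPM against 2360 to 3690 in NC, and Cyp2a5 at 755 against 4500 to 5710. The part of either list in the Hes1 values was not tested.

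RBPJ reads short motifs in front of its target genes. The letters GTGGGAA, or TTCCCAC on the other strand, were searched in the 300 bases from 250 before to 50 after each annotated start (RefSeq, GRCm38.p6), and 6.38% of 32851 such windows held a match. Windows were present for 7 of the 10 genes. Hes1, Hey1 and Mfng had none and were not searched. Of the 7, 1 had a match, Hes5. It had 2, which begin 226 and 83 bases before the start in opposite orientations. Of the paralogs and partners named here, only Hey2, Heyl, Hes6, Nrarp and Lfng were looked up. All but Heyl had windows, and Hes6 and Nrarp held no match. Hey2 had 2, beginning 207 and 4 bases before the start, and Lfng 1, beginning 109 bases before it. These are shown with 10 bases on each side and the match in capitals, to show the motif in 1 target that was barely detected, 1 with overlapping groups and the fringe gene that stood higher in KD. The windows are chr4:154960687-154960713 and chr4:154960830-154960856 (plus strand), chr10:30842974-30843000 and chr10:30842771-30842797 (minus strand), and chr5:140607222-140607248 (plus strand).
Hes5 distal: ggcgagcgcgTTCCCACagcccggaca
Hes5 proximal: gccgccgagtGTGGGAAcggccgcggc
Hey2 distal: cgcggtggcaTTCCCACgcctctgcca
Hey2 proximal: gggctgcagcGTGGGAAagaacctcca
Lfng: cgtatcccacGTGGGAAggagagatct
Such a match is a description of the letters and says nothing of whether RBPJ was bound in this tissue.

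The wider pathway, 55 further genes listed by role, was spread evenly round 0. Of these, 51 were tested, 0 passed the threshold of the edgeR test, 26 had a log2 fold change above 0 and 25 below, and the median was 0.00. At an unadjusted p under 0.05 there were 6 higher and 6 lower of the 51, against 8.7% and 9.25% of all tested genes. KD lay wholly above NC in 7 and wholly below in 10, against 15.3% and 18.6%. In the nuclear complex, 13 of 13 genes were tested and 0 had an unadjusted p under 0.05 in either direction by edgeR. Rbpj, its DNA-binding subunit, stood at 41.1, 74.0 and 109 CPM in the KD libraries against 31.9, 58.3 and 85.2 in the NC libraries, a spread within each group that exceeds the difference between them.

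Of the 12 wider pathway genes with a low unadjusted p, 6 belong to the machinery that cuts Notch. All 10 cleavage genes were tested. At an unadjusted p under 0.05 by edgeR, 3 were higher and 3 lower in KD, against 8.7% and 9.25% of all tested genes. The 3 lower were Psen2, Aph1b and Aph1c. Aph1b and Aph1c can share reads, so they may not be separate counts. After adjustment by edgeR 0 passed. Furin, which makes the first cut as the receptor matures, stood at 355, 447 and 393 CPM in the KD libraries against 223, 231 and 286 in the NC libraries (log2 fold change 0.69, SE 0.192). Furin was the only 1 of the 51 that DESeq2 called (adjusted p = 0.044), where 0.821% of genes were called higher.

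The metalloproteases that make the second cut also lay higher in KD. Adam17 averaged 85.7 ± 11.4 CPM in KD against 49.4 ± 10.6 in NC, and Adam10 averaged 154 ± 23.5 and 97.6 ± 24.9 CPM (SD, n = 3 each). The groups of both did not overlap. Subunits of gamma-secretase that stood lower in KD were Psen2, one of its catalytic subunits, and Aph1b. Psen2 was at 68.0, 36.3 and 77.9 CPM in the KD libraries against 169, 106 and 112 in the NC libraries, and Aph1b at 22.3 ± 4.32 and 39.1 ± 8.41 CPM. Aph1b and its neighbour Aph1c are near-identical copies that can share reads, so their values are uncertain. Dtx3, of the Deltex family of ubiquitin ligases, stood at 180 ± 39.5 and 273 ± 16.1 CPM. Adjusted p was 0.28 by edgeR for all 6 of these genes. Without KD-2 and NC-1 the log2 fold change of Psen2 was -0.56 in place of -1.08, that of Aph1b -0.52 in place of -0.80 and that of Adam10 0.42 in place of 0.66.

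**Figure D3:**
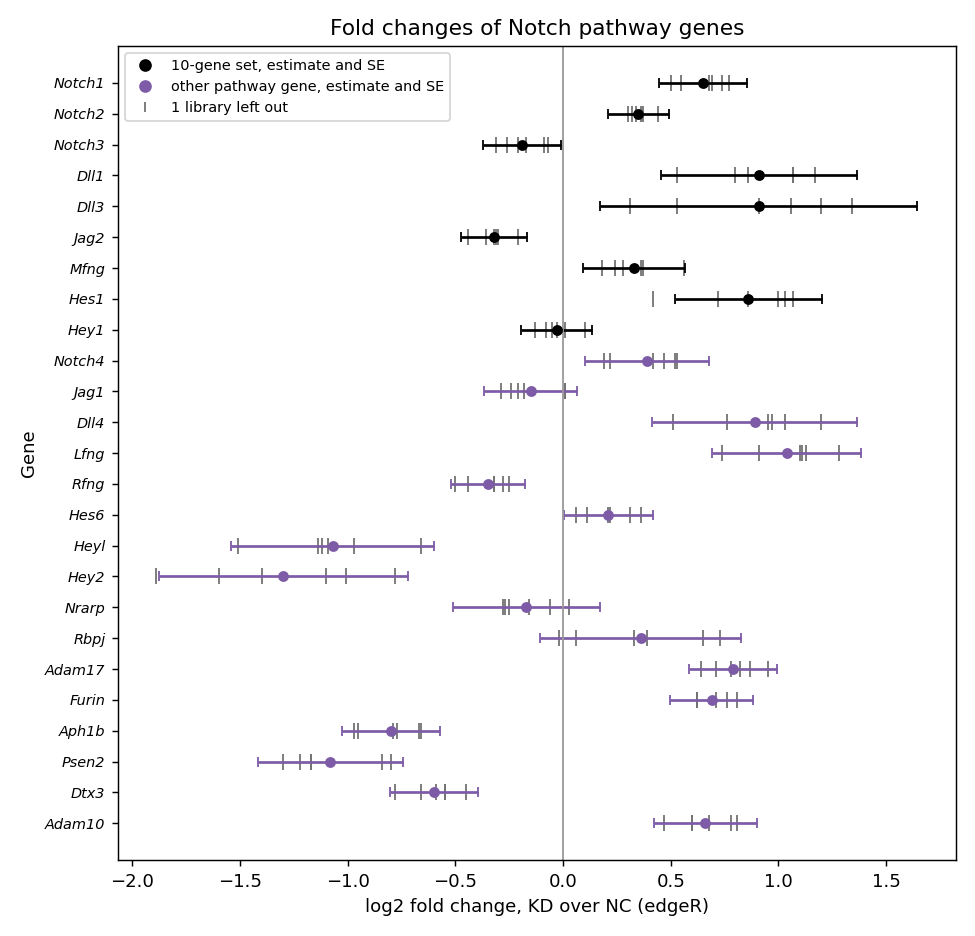
Fitted log2 fold changes of KD over NC with their SE (edgeR) for the 9 tested genes of the set (black) and 16 other pathway genes (purple); grey ticks are the estimates with 1 library left out. The ticks of Hey1, Jag1, Nrarp and Rbpj lie on both sides of 0, and those of Hes1 run from 0.42 to 1.07.

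The level of the 10 genes per exon length spanned a wide range. In NC, Hey1 was highest at 37.4 ± 5.95 CPM per kilobase (SD, n = 3), ahead of Hes1 at 19.5 ± 3.86 and Jag2 at 17.6 ± 0.943. The ranges of Hes1 and Jag2 overlapped, so their order is not resolved. Notch3 at 8.91 ± 1.51 and Notch2 at 6.86 ± 0.308 CPM per kilobase came next, without overlap between them. Mfng at 3.62 ± 0.945, Dll1 at 2.83 ± 1.47 and Notch1 at 2.09 ± 0.417 CPM per kilobase overlapped as neighbours, and Dll3 and Hes5 overlapped at the bottom with 0.287 ± 0.156 and 0.198 ± 0.146. In KD the order differed in several places: Notch2 at 8.78 ± 1.07 stood before Notch3 at 7.81 ± 0.947 CPM per kilobase, and Dll1 at 5.31 ± 1.1 before Mfng at 4.54 ± 0.312. Both of those pairs overlapped in KD. Hey1 at 36.6 ± 1.93 and Hes1 at 35.3 ± 16.1 overlapped there too, since Hes1 reached 53.8 in KD-1.

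Genes with the most similar pattern over the 6 libraries are given for Notch1, Jag2 and Notch3. For each of these, the tested genes with a mean of at least 1 CPM that lay nearest were found by the root mean square difference of log2 CPM, each centred on its own mean. For Notch1 they included Syde1 and Csrp1, with differences of 0.0555 and 0.0614 log2 units, where Notch1 itself had an SD of 0.433. For Jag2 they were Pigq, Acad10 and Adh5, at 0.0345 to 0.0477 against an SD of 0.227. For Notch3 they were Rcan3, Dclk1 and Rnf2, at 0.0387 to 0.0475 against 0.22. Hes5 lay under 1 CPM and was not compared. These likenesses rest on the same 6 libraries, whose marker sums differ.

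**Figure D4:**
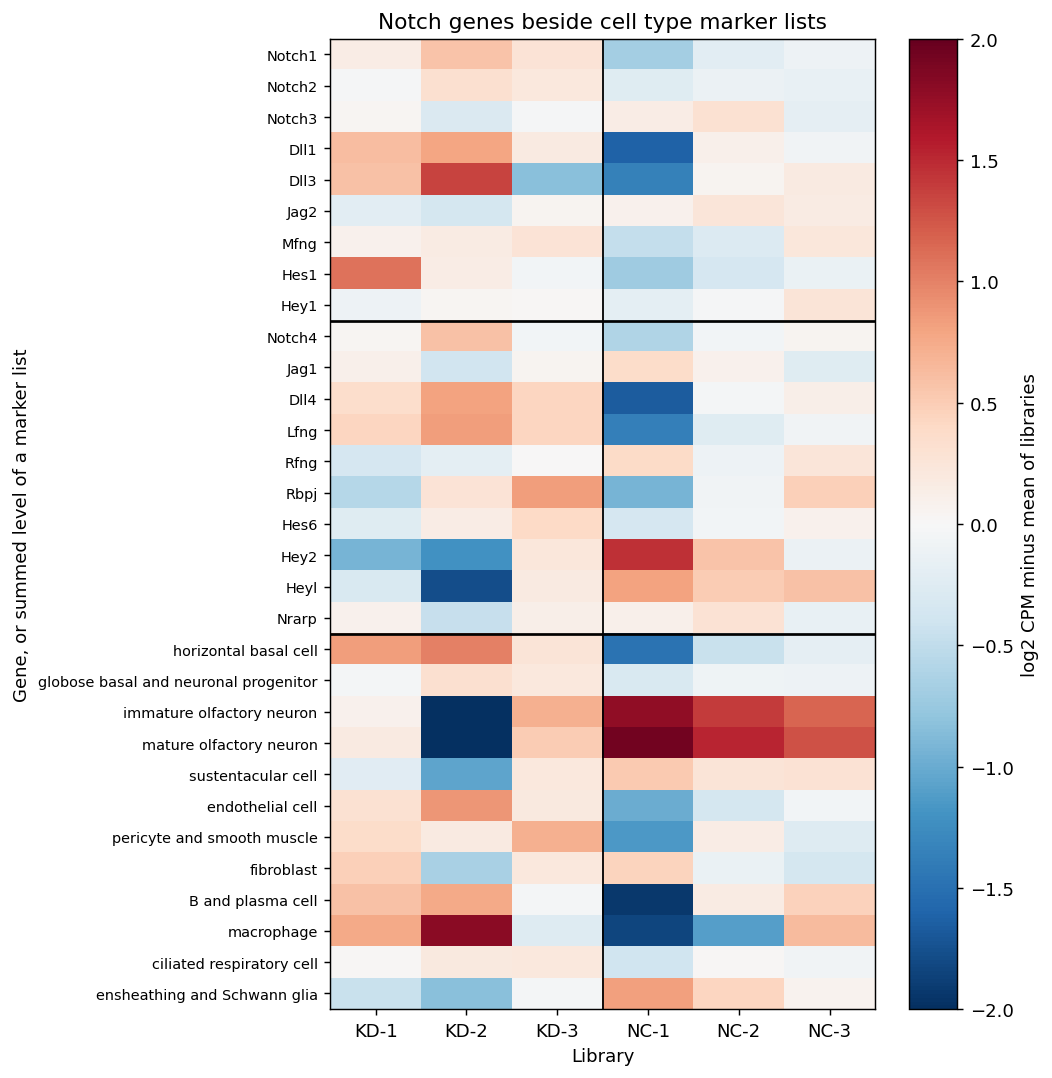
Log2 CPM minus the mean of the 6 libraries for the 9 tested genes of the set, 10 related Notch genes and the summed level of 12 marker lists, by library; red is above and blue below the mean, and colours stop changing beyond 2. Lowest in NC-1 are Notch1, Notch2, Notch4, Dll1, Dll3, Dll4, Mfng, Lfng, Hes1, Hey1, Hes6 and Rbpj. So are the horizontal basal, globose basal, endothelial, pericyte, B cell, macrophage and ciliated lists. Lowest in KD-2 are Notch3, Jag1, Jag2, Hey2, Heyl and Nrarp, and the neuronal, supporting cell, fibroblast and glia lists.

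The 3 genes with seed matches stood on both sides of 0. Notch1 and Notch2, with a miR-200a match, had log2 fold changes of 0.65 and 0.35, and Jag2, with a miR-200b match, had -0.32. Among genes without a match were both the larger positive values, Dll1 and Dll3 at 0.91 and Hes1 at 0.86, and Hey1 at -0.03. Of the paralogs, Lfng held 1 miR-200b match and Heyl 1 miR-200a match, at log2 fold changes of 1.04 and -1.07. None of these passed the edgeR threshold, and no test of the matches was made.

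The authors' deposited table gives its own log2 fold changes of KD over NC for these genes. In the authors' deposited table they were 0.63 for Notch1, 0.33 for Notch2, -0.21 for Notch3, 0.89 for Dll1, 0.90 for Dll3, -0.35 for Jag2, 0.30 for Mfng, 0.84 for Hes1 and -0.06 for Hey1. The value furthest from 0 in the authors' deposited table was -1.47, for Hes5, which rests on 5 KD and 14 NC counts. The unadjusted p-values in the authors' deposited table were 0.016 for Notch1 and 0.039 for Hes1, and between 0.068 and 0.78 for the other 8 genes.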

How the data were processed

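The authors deposited raw counts per gene and library, a signal column (per the file headers a base mean, matched to within 0.0142% by the mean of size-factor-scaled counts), log2 fold changes and unadjusted p-values. The submitters' processing notes list GRCm38 and, without saying what each was used for, HTSeq 0.6.0, HISAT2 2.1.0, TopHat2, Bowtie2 2.2.3, DESeq and DESeq2. The strand setting and annotation release are not stated there, so reads of antisense genes that overlap Notch1, Notch3, Dll1 and Hes5 cannot be told apart from theirs. The columns headed as controls were taken as NC by their numbers.

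Counts were tested with edgeR 4.0.16 (R 4.3.3; TMM, default filter, quasi-likelihood test, two-sided, Benjamini-Hochberg over 18444 genes, threshold 0.05), with no covariate. Each SE is the size of the log2 fold change over the square root of F. Alternatives used DESeq2 1.42.0, limma-voom (limma 3.58.1), other scalings and filters, a replicate block and left-out libraries. Positions and exon lengths came from GENCODE M21 (GRCm38), which holds 31251 of the gene IDs.

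The members and lists were chosen with earlier results of these data known. Named with values were the 10 genes, 10 fixed paralogs and partners, and the 6 other pathway genes with the smallest p. Aph1c, Neurog1, Neurod1 and Neurod2 were added. Some genes that the rule names are not reported here. The 12 marker lists held 88 genes. Summed levels not given in the text were 6.66 to 377 CPM in KD and 517 to 791 in NC for immature neurons, 2150 to 4650 and 2630 to 4550 for fibroblasts, 3880 to 6740 and 1040 to 5480 for B and plasma cells, 1400 to 5870 and 468 to 2590 for macrophages, 560 to 633 and 417 to 555 for ciliated cells, and 49.3 to 86.1 and 92.4 to 157 for glia.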

Additional observations from a re-analysis of the deposited data

How the results depend on the processing

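Each of the 9 tested genes was refitted under 13 alternatives, and 0 of the 9 passed the threshold in any. Notch1, Notch2, Notch3, Dll1, Jag2, Mfng and Hes1 kept their direction in all 13. Over all genes DESeq2 called 151 higher and 196 lower where edgeR called 0 and 0, and edgeR called 3 higher and 0 lower with KD-2 and NC-1 both left out; every other alternative gave 0 and 0. With 1 library left out, both counts ranged from 0 to 0. Dll3, Hey1, Rbpj, Jag1 and Nrarp changed sign under some alternatives. Dll3 ran from 0.31 to 1.34 with 1 library left out and was -0.07 without KD-2 and NC-1. Hey1 ran from -0.13 to 0.10 with 1 library left out, Rbpj from -0.02 to 0.73, Jag1 from -0.29 to 0.01 and Nrarp from -0.28 to 0.03, and without KD-2 and NC-1 Jag1 was 0.17 and Nrarp 0.04; the cause was not tested. The labels do not say whether replicate numbers pair the libraries. Same-numbered libraries correlated at 0.305, 0.101 and -0.257 in their deviations from the group means, and differently numbered ones at -0.355 to 0.349. Deviations within a group of 3 libraries depend on each other, so these values cannot decide whether the libraries are paired. With the number as a replicate block, 0 genes were called higher and 0 lower, and Notch1 was 0.66 (adjusted p = 0.34 by edgeR). At this depth Hes5 had 5 KD and 14 NC counts and did not pass the filter for testing, and Dll3 had 5 to 35 counts per library.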

Other observations

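Some pathway genes outside the naming rule had fitted log2 fold changes further from 0 than any tested gene of the set. They were chosen after their values were seen. Dner, a Notch-binding transmembrane protein of neurons, had 629, 16 and 763 counts in the KD libraries against 2238, 1912 and 1258 in the NC libraries (log2 fold change -1.93, SE 1.04, adjusted p = 0.33 by edgeR). It was lowest in KD-2, where the mature neuron markers summed to 72.5 CPM, and their part in its values was not tested. Members of the Deltex family, ubiquitin ligases that act on Notch, stood on opposite sides. Dtx1 was at 54.1, 22.2 and 87.1 CPM in the KD libraries against 139, 118 and 133 in the NC libraries. Dtx3l was at 103, 145 and 82.2 CPM in the KD libraries against 25.4, 65.1 and 62.0 in the NC libraries. Both had groups that did not overlap and an adjusted p of 0.28 by edgeR, while Dtx4 averaged 57.4 ± 4.91 CPM in KD against 54.5 ± 4.45 in NC (SD, n = 3 each).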
